A study of Mus musculus with 3 samples.

Results

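The 10 genes described here mark ligament and tendon or encode matricellular proteins of such tissues: Postn, Tnn, Tnc, Thbs2, Thbs4, Sparc, Scx, Mkx, Tnmd and Ostn. They were taken by name from the rows of 3 single-cell count matrices of the mouse molar, 10 of the 27040 gene identifiers that the matrices share, and followed by cell class within each library. The Col1a1-GFP Cxcl12-creER P25 library (P25 below) came from mice of genotype Col1a1-GFP; Cxcl12-creER; R26R(tdTomato/+) at postnatal day 25, sorted for GFP, tdTomato or both. The Cxcl12-GFP P6 library came from Cxcl12-GFP/+ mice at postnatal day 6, sorted for GFP. The Cxcl12-creER P6 library came from Cxcl12-creER; R26R(tdTomato/+) mice at day 6, sorted for tdTomato. All were cells of dissociated pulp and periodontium from mandibular molars. Cxcl12-GFP and Cxcl12-creER mark cells in which the gene of the chemokine Cxcl12 is or was active, creER needs tamoxifen, whose timing is not in the labels, and Col1a1-GFP marks cells with an active Col1a1 promoter. The number of animals behind a library is not in the labels. Each group is 1 library, so age, sort gate and reporter genotype differ together and cannot be told apart, and no comparison below has a test. In the main comparison the class name differs with them, ligament at P25 and follicle at P6. Intervals in parentheses are 95% and cover counting error only.

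The dental follicle is the mesenchyme that wraps the developing tooth and gives rise to the periodontal ligament, cementum and part of the alveolar bone. The ligament that replaces it hangs the root in its socket by collagen bundles and carries the load of chewing. Matricellular proteins are secreted proteins that sit in such a matrix without being its main fibres: they bind collagen, growth factors and integrins. In tendon, the transcription factors Scx and Mkx drive collagen and Tnmd, a membrane glycoprotein of differentiated tendon cells.

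The promoters of the members on which the P25 and P6 comparison turns are shown first, the 4 that were higher at P25 and have an entry, and Tnmd, which was lower. Of the 10 members, 7 matched the RefSeq promoter table (GRCm38.p6), and Scx, Mkx and Ostn are named only. Each line gives 250 bases before the listed start, 5′ to 3′ on the strand of the gene. Capitals mark the E-box core CANNTG, which reads the same on both strands and is the family of sites that basic helix-loop-helix factors such as Scx bind, and TATAAA or its reverse complement.
Postn, chr3:54360857-54361106, plus strand: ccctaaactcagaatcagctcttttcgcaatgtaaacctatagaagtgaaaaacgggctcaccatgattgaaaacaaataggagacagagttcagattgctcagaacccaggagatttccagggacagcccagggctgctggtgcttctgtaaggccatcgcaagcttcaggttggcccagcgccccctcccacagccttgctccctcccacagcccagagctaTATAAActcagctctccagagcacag
Tnn, chr1:160153576-160153825, minus strand: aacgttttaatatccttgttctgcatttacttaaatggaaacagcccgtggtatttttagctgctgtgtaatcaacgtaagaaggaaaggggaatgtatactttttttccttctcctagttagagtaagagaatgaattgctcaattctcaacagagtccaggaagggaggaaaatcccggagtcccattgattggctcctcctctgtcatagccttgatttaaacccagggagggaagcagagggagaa
Thbs2, chr17:14694263-14694512, minus strand: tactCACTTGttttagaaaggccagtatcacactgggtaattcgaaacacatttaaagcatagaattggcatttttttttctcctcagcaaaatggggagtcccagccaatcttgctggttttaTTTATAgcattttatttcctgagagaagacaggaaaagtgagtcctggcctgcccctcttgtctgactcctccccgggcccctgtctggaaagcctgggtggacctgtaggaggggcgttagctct
Sparc, chr11:55420081-55420330, minus strand: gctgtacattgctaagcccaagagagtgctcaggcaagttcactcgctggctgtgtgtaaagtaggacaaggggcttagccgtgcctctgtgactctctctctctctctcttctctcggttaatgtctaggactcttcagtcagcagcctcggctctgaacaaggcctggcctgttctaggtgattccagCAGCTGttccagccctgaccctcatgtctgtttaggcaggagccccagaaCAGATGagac
Tnmd, chrX:133850758-133851007, plus strand: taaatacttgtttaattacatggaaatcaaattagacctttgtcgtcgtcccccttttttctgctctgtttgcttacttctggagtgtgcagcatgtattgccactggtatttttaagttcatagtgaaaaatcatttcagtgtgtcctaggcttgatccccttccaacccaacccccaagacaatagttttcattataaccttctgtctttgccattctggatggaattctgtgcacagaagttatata
CANNTG occurred once in the Thbs2 window, beginning at base -246 from the start, and 2 times in the Sparc window, at -60 and -10. The windows of Postn, Tnn and Tnmd held none. TATAAA was present in the Postn window at -26 and, on the other strand, in the Thbs2 window at -126. Of 32851 promoters of this length, 66.2% held CANNTG and 12.4% held TATAAA on either strand, so these matches describe the letters only. Postn has 2 starts in the table, and the one nearest to the GENCODE gene start is shown. The Sparc window lies inside the GENCODE gene, which starts at base 55423183 on the minus strand. The Tnmd and Tnn windows run past the GENCODE gene starts, at bases 133850980 and 160153580.

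The P25, Cxcl12-GFP P6 and Cxcl12-creER P6 matrices held 6693, 7528 and 1691 barcodes with 99277096, 68891094 and 6596256 unique molecular identifiers (UMIs, each a counted molecule), of which 5401, 7065 and 1121 cells were kept at median depths of 14791, 8141 and 1464 UMIs. P25 shared 1 whole barcode with Cxcl12-GFP P6 and 5 with Cxcl12-creER P6, and the P6 libraries shared 0. Clusters made in each library alone, without the members, were named from marker genes that are not members. At P25, 871 cells (16.1%, 15.2 to 17.1) in clusters 0, 7 and 21 were named for the periodontal ligament. Cluster 0 gave 74.6% of their UMIs, and 3 of its ligament markers were past the naming limits, the fewest that allow a name. In Cxcl12-GFP P6, 1711 cells (24.2%) in clusters 1, 7 and 8, with 53.4% of their UMIs in cluster 1, were named for the dental follicle. In Cxcl12-creER P6, 147 cells (13.1%) in clusters 2, 8 and 20 were, and the 49 cells of cluster 8 gave 91.3% of their UMIs. No P6 cluster was named for the ligament, so ligament and follicle could not be set against each other within an age. The naming asked for no margin between the ligament and follicle lists, only for the higher score. The summed level of 7 ligament markers (Aspn, Col12a1, Fmod and others) was 9433 CPM (counts scaled to a total of 1000000 UMIs) in ligament-like cells at P25, against 1504 CPM in follicle-like cells of Cxcl12-GFP P6 and 1351 CPM in those of Cxcl12-creER P6. The summed level of 6 follicle markers was 400 CPM at P25, against 983 and 1036 CPM. Other P6 clusters held more of the ligament list than the follicle-like class: 3506 CPM in Cxcl12-GFP P6 cluster 9 (osteoblast or cementoblast-like), 3053 CPM in Cxcl12-creER P6 cluster 9 of the same name, and 4463 CPM in Cxcl12-creER P6 cluster 17, 32 cells named macrophage-like. With Cxcl12-GFP P6 cluster 9 added to the compared class, Postn, Tnn, Scx, Thbs2 and Sparc were still called at least 2-fold higher at P25. All markers of both lists were above 0 in all 3 classes. The name of a ligament held at P25 by the sums, led by Aspn at 6661 CPM at P25, against 415 CPM at Cxcl12-GFP P6, but not by every marker: Bmp3 of the ligament list was at 39.7 CPM, against 726 CPM, and Pth1r of the follicle list was at 253 CPM, against 72.4 CPM.

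Postn, Tnn, Scx, Thbs2 and Sparc were higher in ligament-like cells at P25 than in follicle-like cells of either P6 library, Tnmd was lower in both comparisons as counted, and Thbs4 and Ostn were past the limits in neither. A gene was called where the ratio of CPM, with 1 CPM added to each side, was at least 2-fold, its interval lay on 1 side of 1, and the higher side had at least 20 CPM and 20 UMIs. Against Cxcl12-GFP P6, 9 of the 10 members reached that level, of which 5 were called higher (9.55% of all 6607 genes tested) and 2 lower (22.6%). Against Cxcl12-creER P6, 9 reached it, of which 5 were called higher (7.54% of 6869 genes) and 2 lower (20.5%). The median log2 ratio of those members was 2.37 against Cxcl12-GFP P6 and 2.76 against Cxcl12-creER P6, beside -0.42 and -0.40 over all genes tested. Both comparisons share the P25 cells. Postn, Sparc and 3 collagens took 18.9% of the UMIs of the P25 class, against 2.58% and 1.99% in the P6 classes, which lowers the CPM of every other gene at P25. Size factors from median ratios raised all log2 ratios over Cxcl12-GFP P6 by about 0.33 and those over Cxcl12-creER P6 by about 0.25. They turned the split of all called genes from 631 higher and 1494 lower to 982 higher and 710 lower against Cxcl12-GFP P6, and from 518 and 1405 to 731 and 817 against Cxcl12-creER P6. The 5 members higher kept their calls. The log2 ratio of Tnc over Cxcl12-GFP P6 moved to 0.0097, beside -0.32 in CPM, and that of Thbs4 to 1.11, beside 0.78, past the limit.

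**Figure D1:**
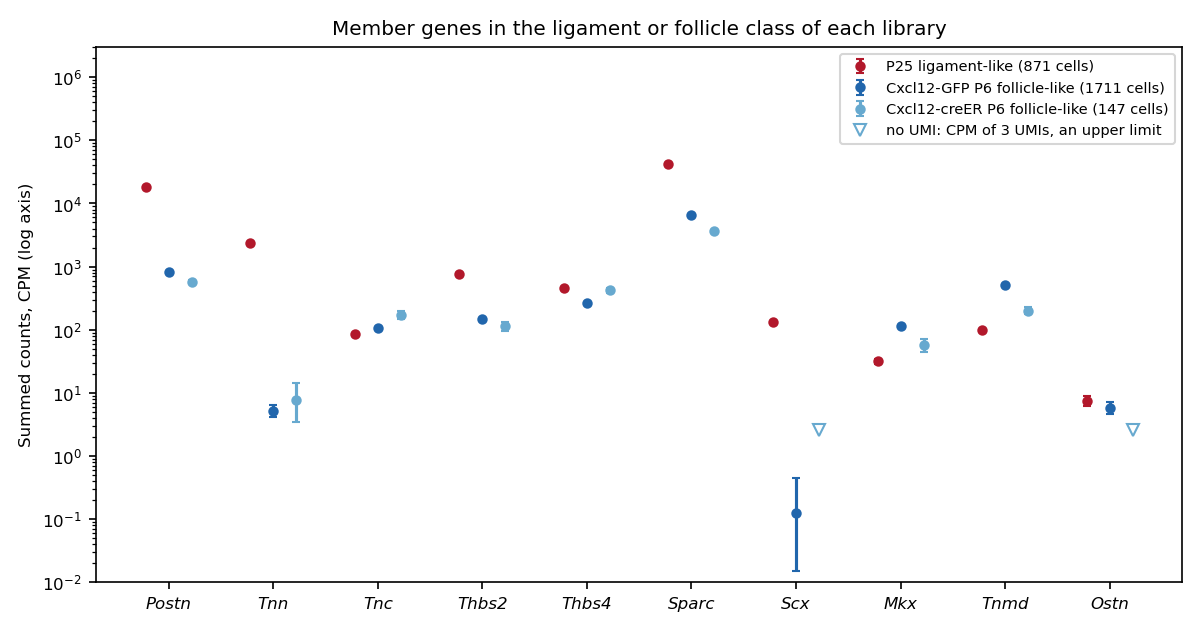
Level of each member (CPM of summed counts, log axis) in ligament-like cells at P25 and follicle-like cells of Cxcl12-GFP P6 and Cxcl12-creER P6. Bars are 95% Poisson intervals and triangles mark 0 UMIs at the CPM of 3 UMIs. Postn, Tnn, Thbs2, Sparc and Scx lie higher at P25. Tnmd and Mkx lie lower as counted, but against Cxcl12-creER P6 that direction depended on the processing.

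Postn encodes periostin, which binds collagen and integrins and helps fibrils to form and cross-link in the ligament. It stood at 18107 CPM in ligament-like cells at P25, against 828 CPM in follicle-like cells of Cxcl12-GFP P6 and 578 CPM in those of Cxcl12-creER P6. The ratios were 21.9 (21.5 to 22.3) and 31.3 (29.1 to 33.8). All P6 clusters of the class lay below all P25 clusters: 22164, 7171 and 2675 CPM in P25 clusters 0, 7 and 21, against 873, 705 and 827 CPM in Cxcl12-GFP P6 clusters 1, 7 and 8. After every cell was thinned to 1000 UMIs, 96.8% (95.4 to 97.9) of ligament-like cells at P25 had a Postn UMI, against 46.7% (44.3 to 49.1) at Cxcl12-GFP P6. Free RNA from burst cells can give a UMI to a cell that does not make the gene. Among the 229 macrophage-like cells of P25 the thinned share was 6.55% and the unthinned share 54.6%, at a median of 13678 UMIs per cell beside 18729 in the ligament-like cells.

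Tnn encodes tenascin-W, a large matrix glycoprotein of bone surroundings and dense connective tissue. Its level was 2344 CPM from 39106 UMIs at P25, against 5.15 CPM from 83 UMIs at Cxcl12-GFP P6 and 7.70 CPM from 9 UMIs at Cxcl12-creER P6. The ratios were 455 (367 to 572) and 304 (160 to 665), the highest of the members against Cxcl12-creER P6 among those with a UMI there. In thinned cells 71.3% had a Tnn UMI at P25, against 0.351% (0.129 to 0.762) at Cxcl12-GFP P6. Among P25 macrophage-like cells the share was 0.437%. In the P6 library itself, 0 of 78 endothelial-like cells held a Tnn UMI unthinned (up to 4.62%), against 3.86% (3.00 to 4.88) of follicle-like cells, and these intervals overlap. The gradient over P25 clusters followed that of Postn, with 2869, 899 and 444 CPM in clusters 0, 7 and 21.

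Tnc, the tenascin of embryonic and injured connective tissue, did not follow Tnn. It stood at 85.0 CPM in P25 ligament-like cells, against 106 CPM in Cxcl12-GFP P6 and 171 CPM in Cxcl12-creER P6, with ratios of 0.801 (0.746 to 0.860) and 0.496 (0.428 to 0.579). The call against Cxcl12-creER P6 lay at the 2-fold limit. It was lost with median-ratio size factors, and with at least 1000 genes per cell the log2 ratio was 0.18. In thinned cells the shares with a Tnc UMI were 8.73% at P25 and 9.35% at Cxcl12-GFP P6. P25 cluster 21 held 162 CPM (137 to 190), above the 80.7 CPM of cluster 0.

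Thbs2 encodes thrombospondin-2, which shapes collagen fibrils and limits vessel growth. It stood at 778 CPM at P25, against 149 CPM at Cxcl12-GFP P6 and 114 CPM at Cxcl12-creER P6, with ratios of 5.21 (4.98 to 5.44) and 6.83 (5.76 to 8.17). It varied little over the P25 clusters, with 833, 641 and 520 CPM in clusters 0, 7 and 21. Thinned shares were 43.4% at P25 and 12.2% at Cxcl12-GFP P6, beside 0 of 229 macrophage-like cells, which allows a share of up to 1.60%.

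Thbs4, the pentameric thrombospondin of tendon and muscle attachment, stood at 460 CPM at P25, against 268 CPM at Cxcl12-GFP P6 and 425 CPM at Cxcl12-creER P6. The ratios were 1.72 (1.65 to 1.78) and 1.08 (0.990 to 1.19), under the 2-fold limit. These averages hid a spread of over 20-fold within the P25 class: 77.7 CPM in cluster 0, 1698 CPM in cluster 7 and 1176 CPM in cluster 21. The ratio of cluster 7 to cluster 0 was 21.9 (20.4 to 23.4). Without P25 cluster 7 the log2 ratio over Cxcl12-GFP P6 was -0.80, and without P25 cluster 0 it was 2.56, so the class level of Thbs4 rested on which clusters it held.

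Sparc encodes osteonectin, a collagen-binding glycoprotein that aids procollagen handling. Its level was 41951 CPM at P25, against 6521 CPM at Cxcl12-GFP P6 and 3711 CPM at Cxcl12-creER P6. The ratios were 6.43 (6.39 to 6.48) and 11.3 (10.97 to 11.6). Sparc had a UMI in 100% of the unthinned cells at P25 and at Cxcl12-GFP P6, and also in 95.6% of P25 macrophage-like cells, so its share carries no information on which cells make it, while its macrophage-like level of 286 CPM was far under that of the ligament-like cells.

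Scx encodes scleraxis, the basic helix-loop-helix factor of tendon and ligament progenitors. It had 2240 UMIs in the ligament-like cells at P25 (134 CPM), 2 UMIs in the follicle-like cells of Cxcl12-GFP P6 (0.124 CPM) and 0 UMIs in those of Cxcl12-creER P6. The ratio to Cxcl12-GFP P6 was 1082 (299 to 8942). Against Cxcl12-creER P6 it was at least 52.3-fold higher, taken against 3 counts over the class, and the exact interval of the ratio began at 42.5. With no doublet removal that class held 21 cells and the Scx call was lost. Thinned to 1000 UMIs, 11.1% (9.12 to 13.4) of P25 ligament-like cells had a Scx UMI, against 0 of 1711 at Cxcl12-GFP P6 (up to 0.215%) and 0 of 229 P25 macrophage-like cells (up to 1.60%). Over whole libraries, Scx was seen in 992 of 5401 cells at P25, against 15 of 7065 at Cxcl12-GFP P6 and 21 of 1121 at Cxcl12-creER P6. The library levels were 34.4, 0.245 and 13.9 CPM, so the P6 libraries differed widely from each other. The Scx UMIs of Cxcl12-creER P6 all lay outside its follicle-like class, so the ratios above hold for the classes and not for all cells of an age.

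Scx lies inside the Bop1 gene on the other strand (chr15:76457452-76459458, plus strand, within Bop1 at chr15:76452989-76477277, minus strand, GRCm38, GENCODE vM21). Bop1, a ribosome assembly gene, had 1457 UMIs (16.4 CPM) in the P25 library and 1357 UMIs (22.2 CPM) in Cxcl12-GFP P6. In Cxcl12-creER P6 it had 98 UMIs (16.99 CPM). The part of Bop1 reads in the Scx counts was not tested. How reads of overlapping genes were assigned is not given in the sources used here, and Scx counts stay uncertain to that extent.

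Mkx encodes mohawk, a homeobox factor of tendon collagen programmes. It went against Scx: 31.6 CPM at P25, against 116 CPM at Cxcl12-GFP P6 and 56.5 CPM at Cxcl12-creER P6, with ratios of 0.273 (0.247 to 0.301) and 0.559 (0.432 to 0.734). The call lower was made against Cxcl12-GFP P6 only. Over 20 alternatives the log2 ratio of Mkx to Cxcl12-creER P6 ran from -2.23 to 1.41, so no direction against that library can be given. P25 clusters held 33.3, 21.7 and 43.2 CPM in clusters 0, 7 and 21, all below the 74.5 to 133 CPM of the Cxcl12-GFP P6 clusters. Thinned shares were 3.33% (2.24 to 4.75) at P25 and 11.3% (9.87 to 12.9) at Cxcl12-GFP P6.

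Tnmd encodes tenomodulin, the membrane glycoprotein that marks differentiated tendon cells. It stood at 97.6 CPM (1628 UMIs) at P25, against 519 CPM (8373 UMIs) at Cxcl12-GFP P6 and 199 CPM (233 UMIs) at Cxcl12-creER P6, with ratios of 0.188 (0.178 to 0.198) and 0.489 (0.426 to 0.564). Thinned shares were 10.4% (8.50 to 12.7) at P25 and 31.3% (29.1 to 33.6) at Cxcl12-GFP P6, beside 0 of 229 macrophage-like cells. The P25 clusters held 27.6 CPM in cluster 0, 334 CPM in cluster 7 and 193 CPM in cluster 21. In Cxcl12-GFP P6, cluster 1 held 810 CPM, against 158 and 206 CPM in clusters 7 and 8. The groups overlap cluster by cluster, and the call against Cxcl12-GFP P6 was lost without P25 cluster 0 (log2 ratio -0.78) and without Cxcl12-GFP P6 cluster 1 (-0.93). All 233 Tnmd UMIs of the Cxcl12-creER P6 class lay in cluster 8, and without that cluster the log2 ratio turned to 6.62, so no direction against Cxcl12-creER P6 can be given.

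Ostn encodes osteocrin, a secreted peptide that binds the natriuretic peptide clearance receptor. With 123 UMIs (7.37 CPM) at P25, 94 UMIs (5.83 CPM) at Cxcl12-GFP P6 and 0 UMIs at Cxcl12-creER P6 it did not reach the level limit. Of its 123 UMIs in the P25 class, 119 lay in cluster 21 (129 CPM, against 0.161 CPM in cluster 0), and outside the class cluster 3 held 58.7 CPM. Cluster 21 stood 22.1-fold above the Cxcl12-GFP P6 class for Ostn.

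**Figure D2:**
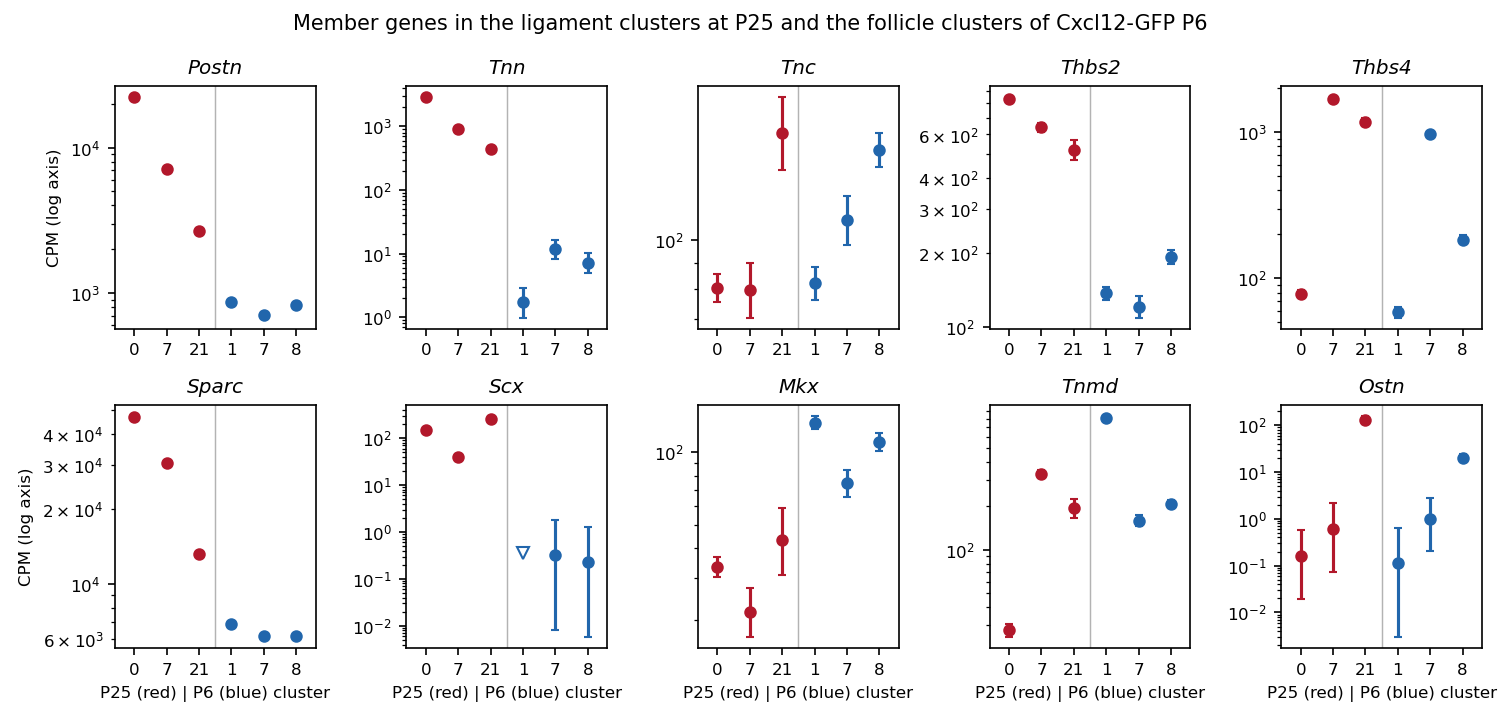
Level of each member (CPM, log axis, separate scales) in P25 clusters 0, 7 and 21 and Cxcl12-GFP P6 clusters 1, 7 and 8, with 95% Poisson intervals. The triangle marks 0 UMIs at the CPM of 3 UMIs. Postn, Tnn, Thbs2, Sparc and Scx lie higher in all P25 ligament clusters than in the P6 follicle clusters. Mkx lies lower in all of them, and Thbs4, Tnmd and Tnc overlap.

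The ligament-like cells of P25 fell into a Postn and Tnn side and a Tnmd and Thbs4 side. Cluster 0 (560 cells, led by Aspn, Mgp and Ccdc3) exceeded clusters 7 and 21 in Postn (ratio 3.58, 3.54 to 3.63) and Tnn (3.59, 3.46 to 3.72), 2 members where 1.77% of genes were called higher. It was lower in Tnmd (0.0912), Thbs4 (0.0490) and Ostn (0.00563), 3 members where 6.57% were called lower. Cluster 7 (237 cells, led by Cxcl5, Pappa2 and Ntrk2) had the highest Thbs4 and Tnmd of the 3. Over cluster 0 these 2 members were called higher (5.23% of genes), Tnmd by 12.1-fold (10.7 to 13.7), and Postn (0.324), Tnn (0.314) and Scx (0.263) lower (1.67%). Cluster 21 (74 cells, led by Mstn, Gdf10 and Prg4, and holding the cartilage and tendon genes Cilp, Kera and Chad among its 10 leading genes) had the highest Scx, 254 CPM (223 to 289), and the highest Ostn. Over cluster 0, Ostn, Thbs4 and Tnmd were called higher (15.6% of genes), and Postn (0.121), Tnn (0.155) and Sparc (0.279) lower (5.03%). Set against the Cxcl12-GFP P6 class each on its own, cluster 0 had 5 members higher (9.34% of genes) and 3 lower (27.8%), cluster 7 had 6 higher (12.2%) and 1 lower (15.9%), and cluster 21 had 7 higher (14.1%) and 2 lower (13.8%). Thbs4 was 0.290 of the P6 level in cluster 0 but 6.34-fold above it in cluster 7 and 4.39-fold above it in cluster 21. The summed level of 7 bone markers was 6562 CPM in cluster 7, against 1641 CPM in cluster 0 and 2600 CPM in cluster 21, and the part of bone-forming cells in the Thbs4 and Tnmd levels was not tested.

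The reporters divided along the same clusters. At least 5 GFP UMIs were seen in 76.2% of cluster 0, 67.5% of cluster 7 and 2.70% (0.329 to 9.42) of cluster 21. At least 5 tdTomato UMIs were seen in 13.2% of cluster 0, 27.0% of cluster 7 and 74.3% (62.8 to 83.8) of cluster 21. Among macrophage-like cells the shares were 0 of 229 for GFP and 1.31% for tdTomato, but 33.7% of neutrophil-like cells passed for tdTomato, so this level does not by itself show recombination. Cluster 21, with the highest Scx and Ostn level of the 3, thus held few cells at that level of the GFP transcript.

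The follicle-like cells of Cxcl12-GFP P6 were also divided by Tnmd and Thbs4, but as opposites. Cluster 1 (869 cells) exceeded clusters 7 and 8 in Tnmd by 4.35-fold (4.10 to 4.60), the only member called higher (4.78% of genes), and had 0.116 of their Thbs4 (0.105 to 0.127), the only member called lower (2.94%). Thbs4 was highest in cluster 7, at 975 CPM.

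The P6 libraries also differed from each other. In follicle-like cells of Cxcl12-creER P6 over those of Cxcl12-GFP P6, Tnmd (0.384, 0.336 to 0.437) and Mkx (0.488, 0.376 to 0.624) were called lower (7.35% of genes) and 0 members higher (14.3%), with Tnc at 1.61 and Thbs4 at 1.58 under the limit. Of 12 immediate early and heat shock genes, 10 reached the level limit, of which 7 were lower and 0 higher (median log2 ratio -1.84). The sort reporter, depth and number of listed features (32286, against 28006 in Cxcl12-GFP P6) differ with the library here and cannot be told apart. Barcode starts differed too, as given under processing. The part of these differences in the member levels was not tested.

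Tnmd and Thbs4 were also counted per cell, pooled over the clusters of each class, which differ in the levels of both genes. After thinning to 1000 UMIs, Thbs4 was seen in 48.4% (37.7 to 59.1) of the 91 ligament-like cells of P25 with a Tnmd UMI and in 19.9% (17.1 to 22.8) of the 780 without. At Cxcl12-GFP P6 it was seen in 11.4% (8.82 to 14.4) of the 536 follicle-like cells with a Tnmd UMI and in 24.4% (22.0 to 27.0) of the 1175 without. Within P25 cluster 7 the intervals overlapped, with Thbs4 in 53.7% (41.1 to 66.0) of the 67 cells with a Tnmd UMI and in 61.8% (54.0 to 69.1) of the 170 without, and within cluster 0 they overlapped too, at 5.88% of the 17 cells with a Tnmd UMI and 5.52% of the 543 without. Within cluster 21, Tnmd was seen in 25.9% (11.1 to 46.3) of the 27 cells with a Thbs4 UMI. It was seen in 0 of the 47 without (up to 7.55%), and these intervals did not overlap. Within P6 clusters the shares were not computed. Tnn at P25 was seen in 49.5% of the cells with a Tnmd UMI and in 73.8% of those without. Of the 72 ordered combinations of 2 members that could be formed at P25, 12 had intervals that did not overlap between cells with and without the other gene. Within cluster 0 alone it was 0 of 63, within cluster 7 it was 2 of 45 and within cluster 21 it was 3 of 54 at 1000 UMIs, while at 3000 UMIs it was 2 of 63, 3 of 54 and 0 of 45. Cells of 1 library share their source, so these shares describe the libraries.

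**Figure D3:**
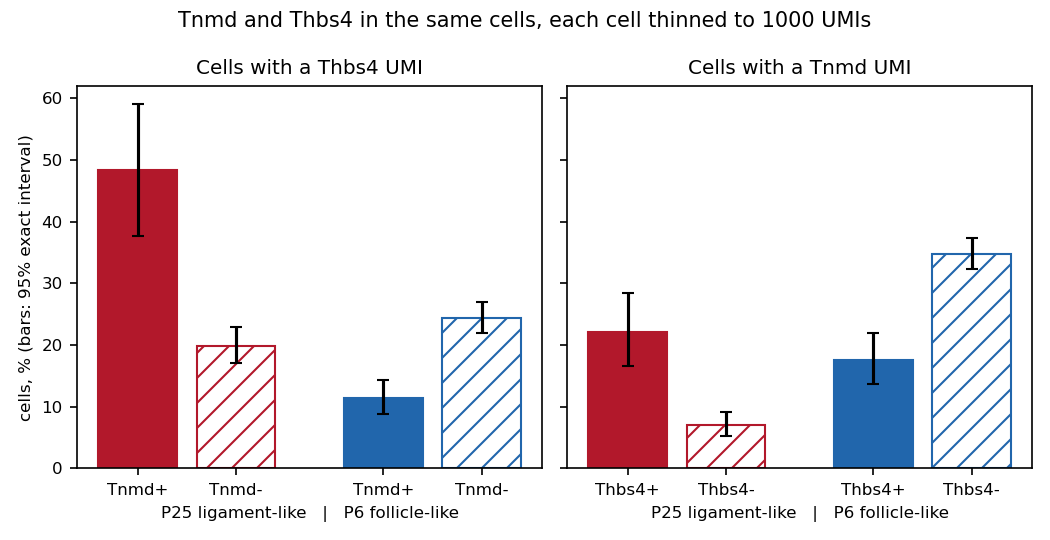
Share of cells with a Thbs4 UMI (left) among cells with and without a Tnmd UMI, and the reverse (right), in P25 ligament-like and Cxcl12-GFP P6 follicle-like cells thinned to 1000 UMIs and pooled over clusters. Bars are exact 95% intervals. Cells with the other gene have the higher share at P25 and the lower share at P6.

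Across the 15 named P25 classes with at least 20 cells, the ligament-like class ranked highest for 7 members: Postn, Tnn, Tnmd, Scx, Mkx, Ostn and Thbs2, each with an interval apart from the next class. The ranking left out 1780 cells (33.0%) in clusters without a name. Of these, cluster 5 held Tnmd at 415 CPM, above 97.6 CPM in the ligament-like class, and cluster 3 held Ostn at 58.7 CPM, above 7.37 CPM. The next class for Postn was connective tissue fibroblast-like at 1011 CPM, for Tnn osteoclast-like at 146 CPM, and for Scx odontoblast-like at 18.8 CPM. Thbs4 ranked behind the osteoblast or cementoblast-like class (550 CPM). Sparc ranked behind the odontoblast-like class by a small margin (42517 CPM). Tnc ranked 7, behind bone marrow stroma-like cells at 1239 CPM (1114 to 1374) and papilla or pulp-like cells at 1102 CPM (1076 to 1128), whose intervals overlap. In Cxcl12-GFP P6 the follicle-like class ranked highest of 7 classes for Mkx and Thbs4 only, and for Mkx the interval, 111 to 121 CPM, overlapped that of the next class, 101 to 126 CPM. In Cxcl12-creER P6 it ranked highest of 10 classes for 0 members. For Postn, Tnmd, Scx, Mkx and Thbs4 the class named macrophage-like, cluster 17, ranked highest there. Of its 32 cells, 22 held no UMI of the macrophage list, as described under other observations. In Cxcl12-GFP P6 the osteoblast or cementoblast-like class, cluster 9, held more Postn (1880 CPM), Tnmd (640 CPM), Ostn (109 CPM) and Sparc (9563 CPM). Over the follicle-like clusters, cluster 9 was called higher in Postn (2.27-fold) and Ostn (18.7-fold), where 2.84% of genes were, and lower in Thbs4 (0.378), where 2.35% were.

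Within P25, ligament-like over papilla or pulp-like cells gave 7 members higher (9.69% of genes), with Postn 116-fold, and Tnc lower at 0.0771 (19.1%). Over osteoblast or cementoblast-like cells 6 were higher (14.4%) and Tnc lower at 0.207 (5.93%), while Thbs4 at 0.836 and Sparc at 1.43 were under the limit. Over connective tissue fibroblast-like cells 8 were higher (7.15%) and 0 lower (15.9%). In Cxcl12-GFP P6, follicle-like over pulp-like cells gave 5 members higher (6.58%), led by Tnmd at 31.5-fold and Thbs4 at 12.4-fold, and Tnc lower at 0.174 (7.13%). Tnc was the member that lay with the pulp at both ages.

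In papilla or pulp-like cells, P25 over Cxcl12-GFP P6 compared otherwise than ligament-like cells of P25 over follicle-like cells of P6. Of the 6 members past the level limit, 0 were higher at P25 (11.5% of 6990 genes) and Thbs4 (0.322, 0.229 to 0.443) and Thbs2 (0.245, 0.185 to 0.319) were lower (10.6%). Tnc was 1102 CPM at P25, against 609 CPM at Cxcl12-GFP P6, a ratio of 1.81 that did not pass the limit, and Sparc was 3272 CPM, against 3836 CPM. In endothelial-like cells (86 at P25, 78 at Cxcl12-GFP P6) 4 members were higher (16.6% of genes) and 0 lower (10.2%), among them Postn at 283 CPM, against 83.6 CPM. The part of free RNA in these levels was not tested. Sparc in endothelial-like cells was 7244 CPM at P25, against 7737 CPM at Cxcl12-GFP P6.

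**Figure D4:**
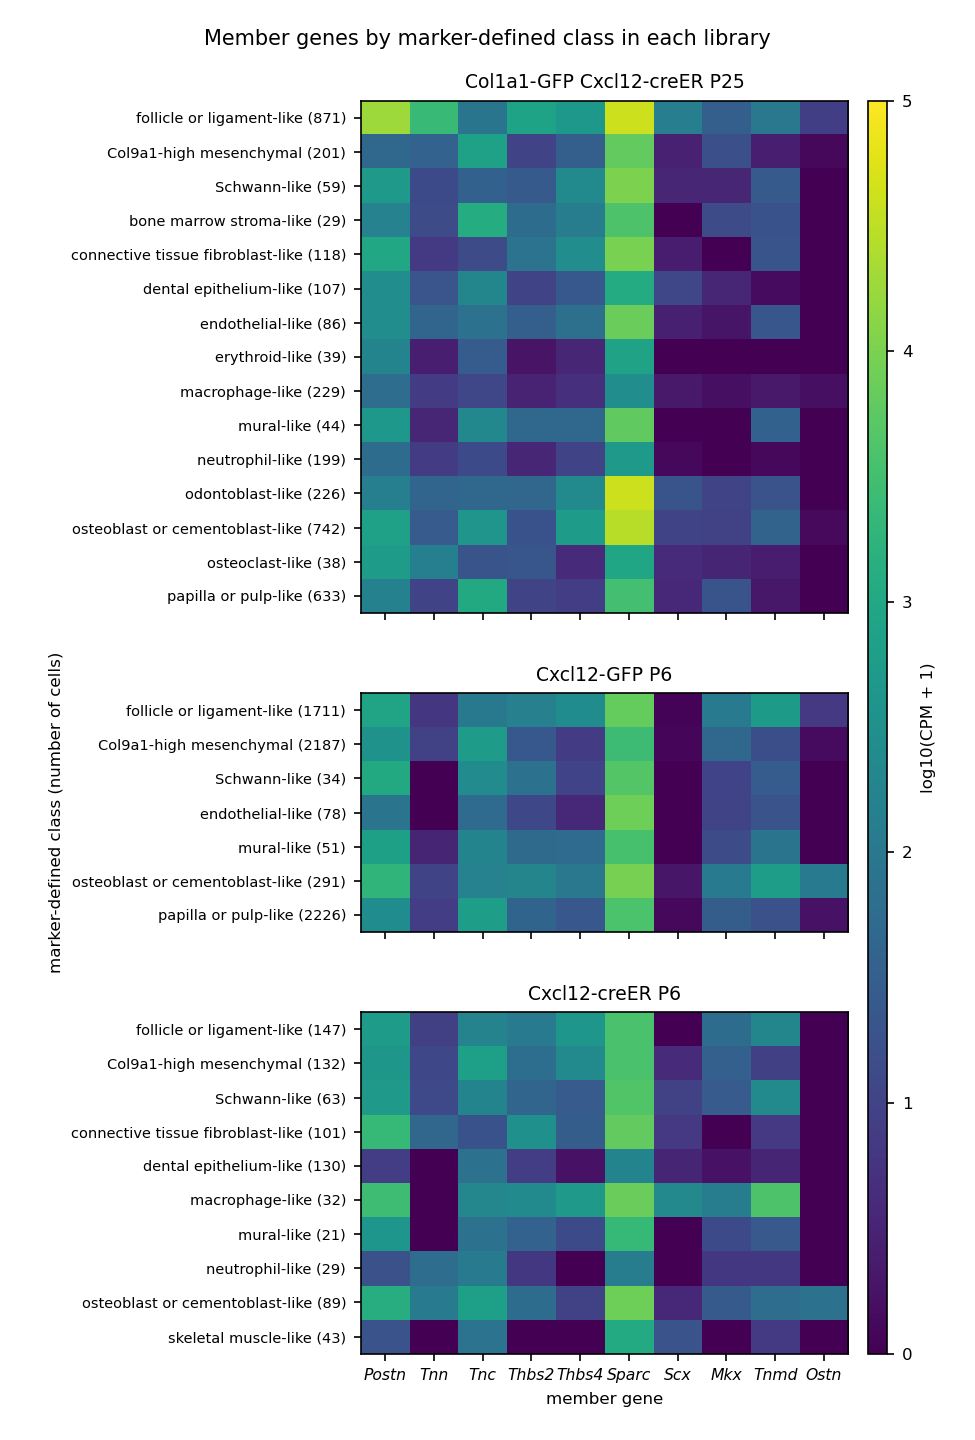
Level of each member, as log10(CPM + 1), in each named class of at least 20 cells (rows, with cell numbers) in P25 (top), Cxcl12-GFP P6 (middle) and Cxcl12-creER P6 (bottom). Postn, Tnn and Scx peak in the top row of P25, Tnc peaks in bone marrow stroma-like and pulp-like rows, and Sparc is high in the odontoblast-like row too. The macrophage-like row of Cxcl12-creER P6 is cluster 17, where 22 of 32 cells held no UMI of the macrophage list.

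Clusters without a name at P25 also carried members. Cluster 3 (418 cells, led by Aspn, with no lead of the bone over the ligament list) held Postn at 8362 CPM, Tnn at 704 CPM and Ostn at 58.7 CPM. Cluster 5 (286 cells, led by Ibsp, Fgf9 and Bmp3) held the highest Thbs4 and Tnmd of all 31 clusters, at 3465 and 415 CPM. It scored best for the bone list, but more of its leading genes belonged to the follicle and ligament lists. The ligament-like class held 1628 of the 5481 Tnmd UMIs and 7678 of the 39622 Thbs4 UMIs of P25. Adding cluster 5 to that class was not tested, and the comparisons of Tnmd and Thbs4 hold for the class without it. Cluster 8 held Tnc at 1169 CPM. Adding cluster 3 to the ligament-like class left Postn, Tnn, Scx, Thbs2 and Sparc called higher over Cxcl12-GFP P6.

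Most genes of the collagen matrix were higher as well. Of 16 fibril collagens and their regulators, all past the level limit, 11 were called higher and 1 lower at P25 than in Cxcl12-GFP P6 (median log2 ratio 1.95, beside -0.42 over all genes), and 11 and 1 against Cxcl12-creER P6 (2.23, beside -0.40). Over all genes 9.55% were called higher and 22.6% lower in the first comparison, and 7.54% and 20.5% in the second. Col11a1, a minor fibril collagen that sets fibril diameter, stood at 2248 CPM at P25, against 180 CPM at Cxcl12-GFP P6 (12.5-fold). Col5a1, which starts fibrils, stood at 1462 CPM, against 122 CPM (11.97-fold). Col1a1 and Col1a2, the chains of the main fibre, were 6.44-fold and 9.35-fold higher. Col1a1 drives a sort reporter at P25, and its part in these levels cannot be told apart from age. The lysyl oxidase relative Loxl1 was lower, at 58.0 CPM, against 123 CPM, a call lost with median-ratio size factors, under which 11 were higher and 0 lower.

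Relatives of the matricellular members were called in both directions. Of 18, 10 reached the level limit, of which 2 were higher and 5 lower than in Cxcl12-GFP P6 (median -1.06), and 1 higher and 5 lower than in Cxcl12-creER P6 (median -0.99). Over all genes lower calls also outnumbered higher ones, at 22.6% and 9.55% against Cxcl12-GFP P6 and 20.5% and 7.54% against Cxcl12-creER P6. With median-ratio size factors the counts were 2 and 4, and 3 and 4. Thbs3, which can join Thbs4 in pentamers, stood at 385 CPM at P25, against 55.8 CPM (6.89-fold), and Spock2, a testican proteoglycan, was 3.13-fold higher. Its relative Spock1 was at 3.24 CPM, against 72.3 CPM (ratio 0.0448). Tgfbi, whose fasciclin domains resemble those of periostin, was at 40.9 CPM, against 398 CPM (ratio 0.103), the reverse of Postn.

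Receptors of the members were mostly within 2-fold in CPM. Of 13, 8 reached the level limit against Cxcl12-GFP P6, of which 1 was higher and 1 lower (median 0.60), beside 9.55% and 22.6% of all genes, so the count of higher receptors was near the background. Ptprz1, a tenascin-binding phosphatase, was called higher (2.35-fold) and Itga8, an integrin chain, lower (0.377). The integrin chains Itgav, at 58.3 CPM at P25, against 29.5 CPM (1.98-fold), and Itgb1, at 996 CPM, against 571 CPM (1.75-fold), were under the limit. Against Cxcl12-creER P6, 7 reached it, of which 1 was higher and 0 lower (median 0.47), beside 7.54% and 20.5% of all genes. With median-ratio size factors 4 of 7 were higher and 0 lower against Cxcl12-GFP P6 and 3 of 7 were higher against Cxcl12-creER P6, so the receptor count depends on the scaling.

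Of 17 regulators of tendon fate, 13 reached the limit, of which 3 were higher and 1 lower than in Cxcl12-GFP P6 (median 0.40), beside 9.55% and 22.6% of all genes. Against Cxcl12-creER P6, 1 was higher and 0 lower (median 0.12), beside 7.54% and 20.5%, and that count of higher regulators was at the background. Tgfb1, a growth factor that acts upstream of Scx in tendon, stood at 444 CPM at P25, against 72.7 CPM (6.11-fold), and was the gene called higher in both comparisons. Eya1 was 4.29-fold and Smad3 2.16-fold higher. Tgfb3 was lower, at 83.2 CPM, against 173 CPM (0.480), a call lost with median-ratio size factors, under which 5 regulators were higher and 0 lower. Of 12 immediate early and heat shock genes, which follow tissue dissociation, 11 reached the limit in each comparison. Atf3 was higher (9.40-fold) and Ier2 (0.181), Nr4a1 (0.228) and Junb (0.319) were lower than in Cxcl12-GFP P6, 1 and 3 in all, while 5 were higher and 0 lower than in Cxcl12-creER P6. The shares of all genes given above apply to these counts too. The part of dissociation in the member levels was not tested. Markers of other cells differed as well: summed mural markers were 563 CPM at P25, against 2113 CPM at Cxcl12-GFP P6, bone markers 2671 CPM, against 452 CPM, and erythroid genes 707 CPM, against 124 CPM, with 0 markers of these lists at 0, and their part in the results was not tested. Macrophage markers were at 36.1 CPM, against 55.1 CPM, and their part was not tested either.

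**Figure D5:**
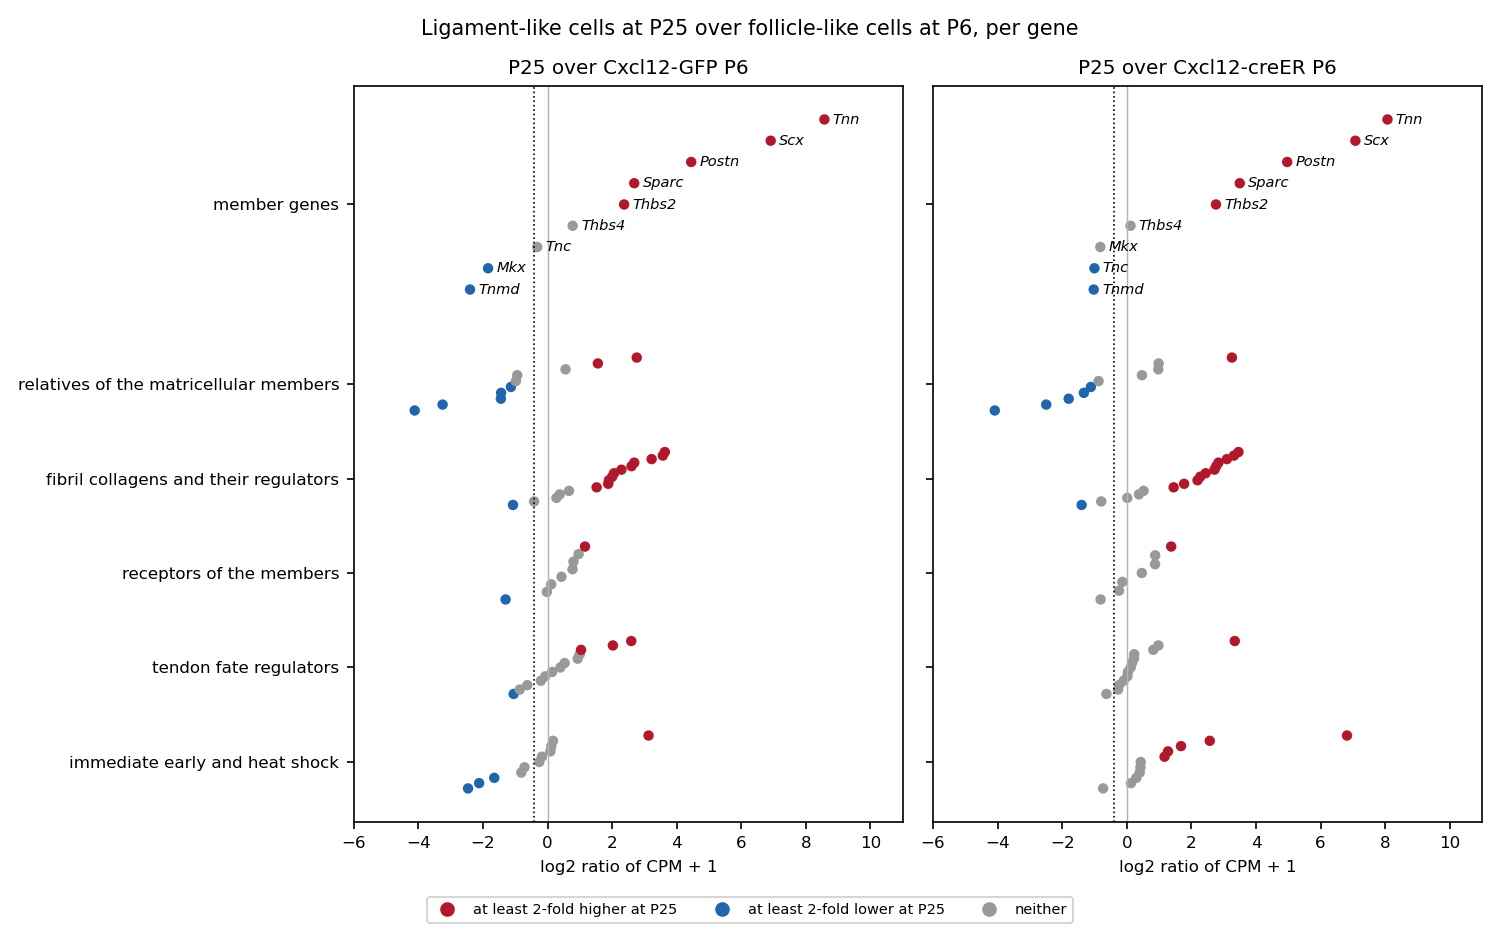
Log2 ratio of (CPM + 1) of ligament-like cells at P25 over follicle-like cells of Cxcl12-GFP P6 (left) and Cxcl12-creER P6 (right), 1 point per gene past the level limit, by list. The dotted line is the median of all genes tested, -0.42 and -0.40. Collagen points lie mostly right of it, and points of the matricellular relatives mostly left.

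The genes whose levels ran most like each member over the 31 P25 clusters were found among 7319 genes by Pearson correlation of log2(CPM + 1), given as a description. Clusters of 1 library share depth and free RNA. Postn ran with P4ha3, a collagen prolyl hydroxylase chain (r = 0.898), and with Spon2 (0.8905) and Itgbl1 (0.883). Thbs2 ran with Col16a1 (0.864), P4ha3 (0.863) and Angptl2 (0.860), and Tnn with Col16a1 (0.826), the fibril-associated collagen Col12a1 (0.815) and Duoxa1 (0.814). Tnmd ran with Srpx2 (0.862), Tfap2b (0.859) and Adamts5 (0.847), and Thbs4 with Tfap2b (0.881), Srpx2 (0.868) and Adamts2 (0.839), so 2 of the 3 genes were shared. Scx ran with Arl4d, Crabp2 and Cyp26b1 (0.787 to 0.797), the last 2 of which bind or break down retinoic acid. Mkx ran with Tnfrsf19 (0.861), Alpl (0.859) and Clec11a (0.858), and Tnc with Hey1 (0.851), Tle2 (0.849) and Mir143hg (0.843). Ostn ran with Camk4 (0.732), Dner (0.730) and Wnt16 (0.632), all highest in cluster 21. Sparc ran with the collagen chaperones Serpinh1 (0.958) and Fkbp10 (0.954) and with C1qtnf6 (0.958). Among the members themselves the highest correlation was between Tnmd and Thbs4 (0.880) and the lowest between Tnc and Scx (0.243).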

How the data were processed

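Sorted cells of mouse mandibular molars were profiled with 10X 3' v3 chemistry, per the labels' protocols, in 3 libraries. The authors deposited raw counts of UMIs, 1 matrix per library. The submitters' processing notes list Cell Ranger, Seurat and mm10. The P25 matrix header names version 3.1.0 of Cell Ranger, and that of Cxcl12-creER P6 names 6.0.0. How reads were filtered upstream was not stated. The first 8 bases of a barcode were also seen at P25 for 82.3% of Cxcl12-creER P6 and 21.0% of Cxcl12-GFP P6 barcodes, and a difference in chemistry was not tested.

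The 10 members, the companion lists and the marker lists were chosen with earlier results of these data known. A barcode was kept with 500 or more genes and a mitochondrial share of 15% or less. Doublets were scored after Scrublet's scheme, with 2 simulated per cell. The top scores, 0.8% for each 1000 cells, were removed (256, 452 and 10 cells in P25, Cxcl12-GFP P6 and Cxcl12-creER P6), so that number was set by the rate. Clusters were made per library with Leiden at resolution 1.0 on 15 neighbours, 30 components and 2000 variable genes, leaving out members and 76 companion genes. Names came from 19 marker lists. A name was refused where more leading genes belonged to another class, where cycling genes scored higher, or where a shallow cluster had no leading gene of its own list. It needed 3 markers at 1.5-fold over the median of the other clusters in 10% of cells. It also needed a score of 0.9 and a score 0.2 above that of the runner-up list of another class. That margin was 0.3 until clusters had been seen, and was lowered so that cluster 8 of Cxcl12-creER P6 kept its follicle name. Follicle and ligament clusters formed 1 class, so no margin was asked between the ligament and follicle lists.

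UMIs of a class were summed and scaled over the 27040 shared identifiers (CPM). Intervals at 95% were exact Poisson for levels, conditional binomial for ratios and Clopper-Pearson for shares. PCR and counting aside, they hold no spread between animals. Log2 ratios had 1 CPM added. Thinning to 1000 UMIs left out 0 ligament or follicle-like cells of P25 and Cxcl12-GFP P6. Calls, intervals and thinning were tested on simulated data. Companion genes named are up to 4 per list with the largest absolute log2 ratio; Loxl1 was added after its value was seen. The median-ratio counts over all genes and lists were also added after seeing the data. Python 3.11.15 was used with leidenalg 0.10.2, igraph 0.11.9, scipy 1.17.1, numpy 2.4.6, scikit-learn 1.9.0, matplotlib 3.10.9 and pandas 2.3.3.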

Additional observations from a re-analysis of the deposited data

Results flagged for a closer look

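Thbs2 differed between P25 and Cxcl12-GFP P6 in opposite directions in 2 classes. For ligament-like cells of P25 over follicle-like cells of Cxcl12-GFP P6 its ratio was 5.21 (4.98 to 5.44). For papilla or pulp-like cells it was 0.245 (0.185 to 0.319), with each class being 1 library per age. The difference between the classes was not tested.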

How the results depend on the processing

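Against Cxcl12-GFP P6, the count of members higher at P25 was 5 to 7 over 22 alternatives and always held Postn, Tnn, Scx, Thbs2 and Sparc. The 2 members lower became 1 without P25 cluster 0 and without Cxcl12-GFP P6 cluster 1, Mkx alone, and were 3 with Cxcl12-GFP P6 cluster 9 added. Against Cxcl12-creER P6 the count of higher members was 4 to 7 over 20 alternatives, the 4 with no doublet removal, where Scx lost its call in a class of 21 cells, and the 2 lower members were lost most easily. They became 1 with members among the variable genes, at least 1000 genes per cell, at most 10% mitochondrial UMIs, a lead of 0.3 in naming, the mean of per-cell CPM, P25 cluster 3 added, and without P25 cluster 0, Cxcl12-creER P6 cluster 2 or Cxcl12-creER P6 cluster 8. They became 0 with no doublet removal, median-ratio size factors and a pseudocount of 5 CPM. The log2 ratio of Tnmd to Cxcl12-creER P6 turned to 4.84 at resolution 0.5, 5.30 with no doublet removal, 6.62 with a lead of 0.3 and without cluster 8, 0.71 with the mean of per-cell CPM and 0.60 without P25 cluster 0. That of Tnc turned to 0.27 at resolution 2.0, 0.18 with at least 1000 genes, 6.52 with no doublet removal and 0.00185 with cluster 3 added. Leaving out a cluster or doublet removal changes which cells the class holds, and other causes were not tested. The members highest in the ligament-like class numbered 5 to 8 over 12 alternatives, beside 7, and unordered combinations of 2 members with separate shares 6 at 1000 UMIs and 9 at 3000 UMIs. The lead of 0.3 and the added clusters 3, 9 and 12 were chosen after seeing the data. No paired analysis was possible because each group is 1 library. Alternatives of the P6 ligament over follicle comparison could not be run, since no P6 cluster was named for the ligament. Depth limits Cxcl12-creER P6 most, where 58 of the 147 follicle-like cells had under 1000 UMIs.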

Other observations

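The clusters with the highest Scx and Tnmd levels of the Cxcl12-creER P6 library lay outside the follicle-like cells. In Cxcl12-creER P6, cluster 17 (32 cells) was named for macrophages, but 22 of its cells held 0 UMIs of the macrophage list, a division made after its values were seen. Those 22 cells had 7730 CPM of Tnmd (704 UMIs in 10 cells), 439 CPM of Scx (40 UMIs in 7 cells), 5238 CPM of Postn, 944 CPM of Thbs4 and 242 CPM of Mkx, with the tendon proteoglycans Kera at 3459 CPM and Fmod at 1834 CPM and 0 UMIs of Tnn and Ostn. The other 10 cells had 11.6 CPM of Tnmd (1 UMI) and 0 UMIs of Scx. Of the 80 Scx UMIs of that library, 40 came from these 22 cells. Their Scx level lay above the 134 CPM of the ligament-like cells at P25. The combination of high Tnmd and Kera without Tnn was seen in no follicle-like cluster of Cxcl12-GFP P6, where Kera was at 0.0620 CPM over the class, and whether these cells belong to the tooth or to neighbouring tissue was not tested.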
